A study of Capra hircus with 2 samples.

Results

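The sequences described are the predicted miRNA candidates of goat endometrium with a listed length of 18 or 19 nt. They were taken by name (the prefix PC-) and by length from the table of predicted miRNAs, and a name listed for several hairpins was counted once. There were 179 such names, 58 of 18 nt and 121 of 19 nt, among 621 predicted candidates and 1208 names of known miRNAs and candidates together. The other 442 candidates had 20 to 26 nt. Small RNA was sequenced from the endometrium of multiparous Xinong Saanen dairy goats of 24 months. The pre-receptive library (P) came from day 5 of gestation and the receptive library (R) from day 15. For each library RNA of 9 goats was mixed into 3 pools and sequenced 3 times, and the files give a single merged value. With 1 library for each phase there was no replicate, so a test compares 2 libraries and not the phases. Expression was given as normalized expression (NE), in which 1 read was worth 0.860 NE in R and 1.16 NE in P, so that NE is reads over a size factor and not over the clean reads as in the stated formula. Library labels of the table of candidates are the reverse of those used elsewhere in the study and were exchanged here. All 71 entries of candidates that also stood in the table of differential expression had equal values after the exchange (within 0.006 NE), and 0 had equal values as printed.

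A miRNA is cut from a hairpin precursor by the nucleases Drosha and Dicer, and a strand of the resulting duplex, from the 5p or the 3p arm of the hairpin, is loaded into an Argonaute protein. The seed near the 5′ end pairs with target mRNAs, and loaded strands often begin with uracil. Ribosomal RNA, transfer RNA and other abundant structural RNAs are also broken into short pieces, which enter small RNA libraries and can be shorter than most miRNAs. Predictions made from a genome and a folding program may therefore include such pieces, and so the listed sequences themselves are given before their values.

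The 15 names with at least 10 reads over both libraries (called well-read here) carried most of the reads and are shown in order of reads, 5′ to 3′, with bases 2 to 8 (the seed) in capitals and T for U.
PC-5p-6424_145: cAGCCTCTggcatgttgga
PC-5p-5933_158: cTGTACCAccttgtcggg
PC-5p-10782_91: cTTGACTCtagtctggca
PC-5p-35677_26: cTCCGTCCcgggacccggg
PC-5p-26648_38: tCCCGGGGccgagggagcc
PC-5p-29935_32: tGAGATGAagcactagctc
PC-3p-22067_41: aAGCAGGAttactctgaga
PC-5p-63323_12: cCAAGGAGtctgacatgcg
PC-3p-61660_13: cGCCTGTCtgagcctcgct
PC-5p-39354_23: cCTGGTGGgtagaacctcc
PC-3p-66717_11: gCCTGTCTgagtgtcgct
PC-3p-99692_7: tCCGCCGGccttgcgggcc
PC-5p-60249_14: aTTCCTATaattctagcca
PC-5p-139329_4: gGGTGCTGatagtgaggc
PC-5p-91245_7: cGCGCGCGgggcccgggg

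These 15 sequences had 15 different seeds. Of the 15, 8 began with C and 3 with T, while of the 35 candidates of 20 to 26 nt with at least 10 reads, 4 began with C and 16 with T. Their median GC content was 61.1% (range 31.6% to 100%), against 40.9% in those 35 longer candidates and 47.4% in the 164 candidates of 18 or 19 nt below 10 reads. GC contents of 70% or more occurred in 4 of the 15, in 2 of the 35 and in 18 of the 164. The known names on a list of database entries that match rRNA, tRNA or other structural RNA, written from general knowledge, numbered 13. Of these, 6 began with C and 2 with T, and their median GC content was 60%. Several of the 13 share most of their bases, such as bta-miR-2478_L+2 and mmu-miR-3963_R+2_1ss1TC, so they do not count separate RNAs. The well-read short candidates thus lay nearer to these 13 names than to the longer candidates in these 2 features but not in CCA ends (below), although each of these groups is small and no test of the features was made.

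**Figure D1:**
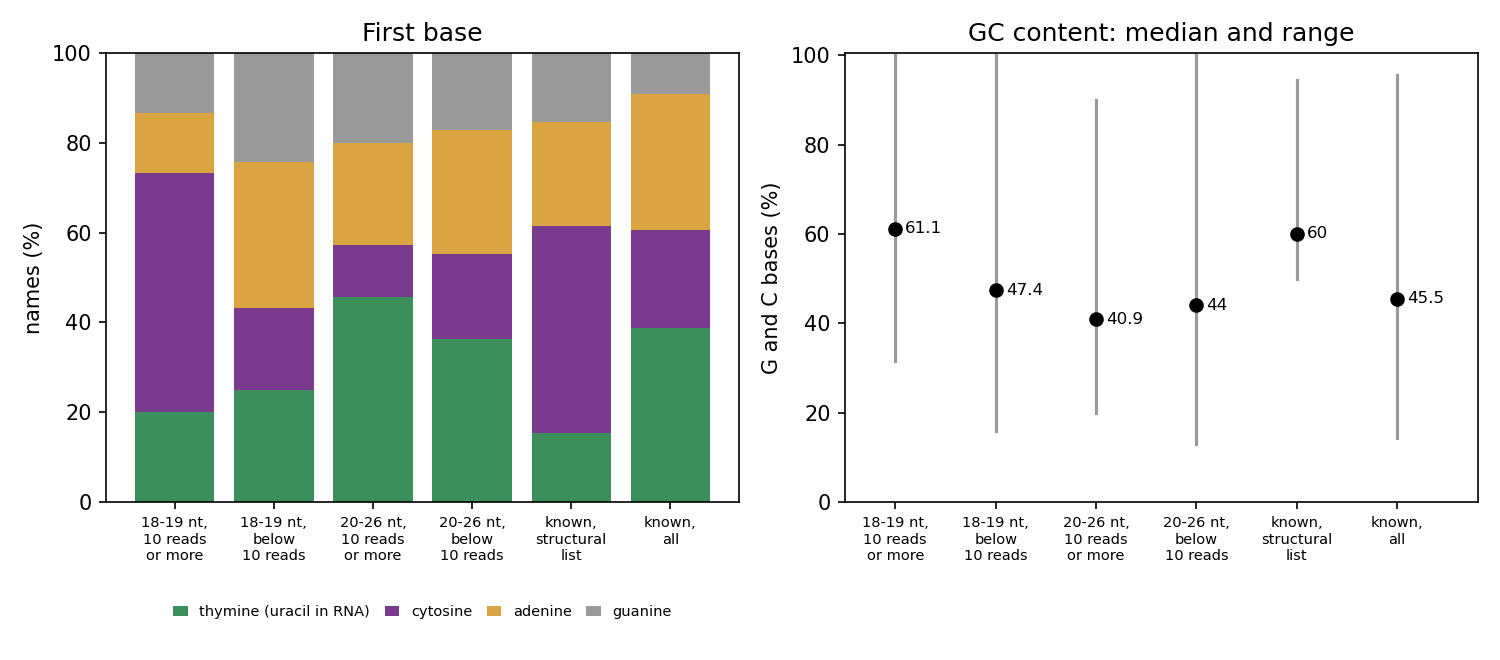
Left, share of names (%) by first base in candidates of 18 or 19 nt, candidates of 20 to 26 nt and known names. Right, GC content (%), with the median as a point and the range as a line. In the 15 well-read short candidates 53.3% of names began with cytosine and the median GC content was 61.1%, beside 46.2% and 60% in the 13 known names of the structural list.

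Among all 179 names, 106 were placed on the 5p arm and 73 on the 3p arm, so 59.2% were 5p, against 46.2% (204 of 442) of the longer candidates. In the 15 well-read names the arms were 5p in 11 and 3p in 4. The predicted hairpins had 50 to 136 nt, with a median of 83.0 nt and quartiles of 69.0 and 97.5 nt, and those of the longer candidates had 50 to 166 nt with a median of 85.0 nt. Hairpins of the well-read names had a median of 69.0 nt, and those of the 164 names below 10 reads had a median of 84.0 nt. The shortest hairpins among the well-read names were those of PC-5p-26648_38 (53 nt) and PC-3p-99692_7 (56 nt), whose sequences each held 84.2% G and C. Of the 179 names, 1 was listed for more than 1 hairpin, and it had 2 entries.

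**Figure D2:**
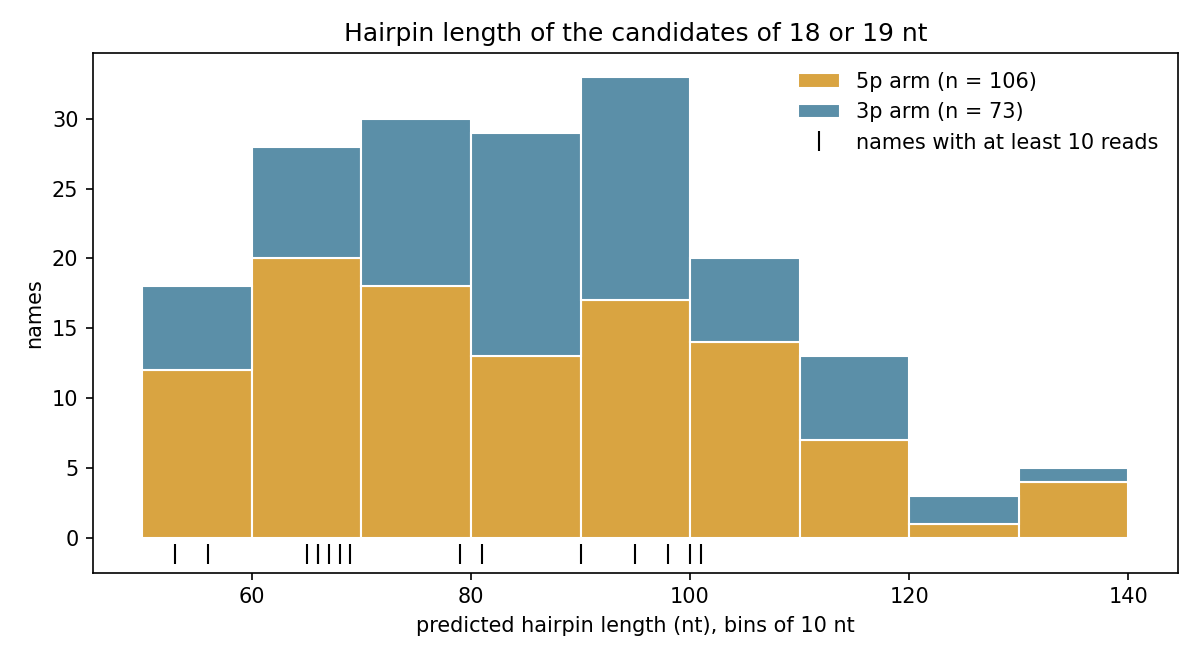
Number of candidates of 18 or 19 nt by predicted hairpin length (nt, bins of 10 nt), stacked by arm. Ticks under the bars mark the 15 names with at least 10 reads, with 2 names at 66 nt.

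Most of these candidates were very rare. Of the 179 names, 94 had 1 read over both libraries, 35 had at least 3 reads and 15 had at least 10 reads. The median was 1 read, against 2 reads in the longer candidates and 25 reads in the known names. Summed over the short candidates there were 965 reads from R and 258.5 from P, equal to 0.0505% of the listed reads of R and 0.00638% of those of P. The 15 well-read names accounted for 77.2% of these reads in R and 71.2% in P. PC-5p-6424_145 and PC-5p-5933_158 alone held 43.4% of the reads of the short candidates in R and 17.0% in P. The summed values of the short candidates therefore rest largely on a few names.

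Reads of the short candidates came mainly from the R library. Summed NE was 830 in R and 299 in P, a ratio of 2.77 (95% exact interval 2.41 to 3.19) or 1.47 on the log2 scale. Reads in R made up 78.9% of their reads (exact interval 76.5% to 81.2%), where equal NE in both libraries would give 57.5%. Intervals here cover counting error only, because amplified reads were not traced to single molecules. Without the 2 most abundant names, an alternative added after seeing the data, the log2 ratio was 0.92 (0.69 to 1.15), so these names set a large part of its size. For the 18 nt names the log2 ratio was 2.05 and for the 19 nt names 1.20, and PC-5p-5933_158, of 18 nt, weighs on the former. The ratio also depends on the scaling, since the same reads scaled to the clean reads of each library gave a log2 ratio of 2.25 and scaled to the listed reads 2.99. These scalings moved the median log2 ratio of all 564 names tested from -0.07 to 0.71 and 1.45, which are shifts of 0.78 and 1.52 for every name.

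The predominance of R was also present among the rarest names. In all, 113 short candidates were detected in R only, 36 in P only and 30 in both. Of the 94 names with 1 read, 70 had it in R and 24 in P, so 74.5% (exact interval 64.4% to 82.9%) were from R. Among the 194 longer candidates with 1 read, 116 had it in R and 78 in P, which is 59.8% (52.5% to 66.8%) and near the 57.5% of equal NE. Equal shares of clean reads would give 44.0% and equal shares of listed reads 32.1%, and the interval of the longer candidates lies above both. The change did not fall between 19 and 20 nt. Of the names detected in 1 library, R held 75.5% at 18 nt, 76.0% at 19 nt and 74.2% at 20 nt, and 62.7% at 21 nt, 64.1% at 22 nt, 67.3% at 23 nt and 72.2% at 24 nt, the last with 18 such names. With the well-read names left out, R held 77.0%, 73.5% and 76.3% of the reads at 18, 19 and 20 nt, and 62.1%, 62.2%, 64.7% and 66.7% at 21 to 24 nt. With all names, R held 84.6%, 75.6% and 78.3% at 18, 19 and 20 nt, and 59.7%, 54.0%, 79.2% and 80.6% at 21 to 24 nt. The 16 names of 25 nt had 53.1% and the 5 names of 26 nt 20.0% of their reads from R. The predominance of R was thus not particular to 18 and 19 nt. These values were tabulated after seeing the data. Among the known names of 18 or 19 nt, 80.7% of the reads were from R, and 1 name, mmu-miR-6240_R-8_1ss1CA of the structural list, held 2169 of their 2463 reads. It held 1841 of their 1988 reads in R and 328 of their 475 reads in P. The share of 80.7% thus rests on this name and does not describe the other known names of these lengths.

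**Figure D3:**
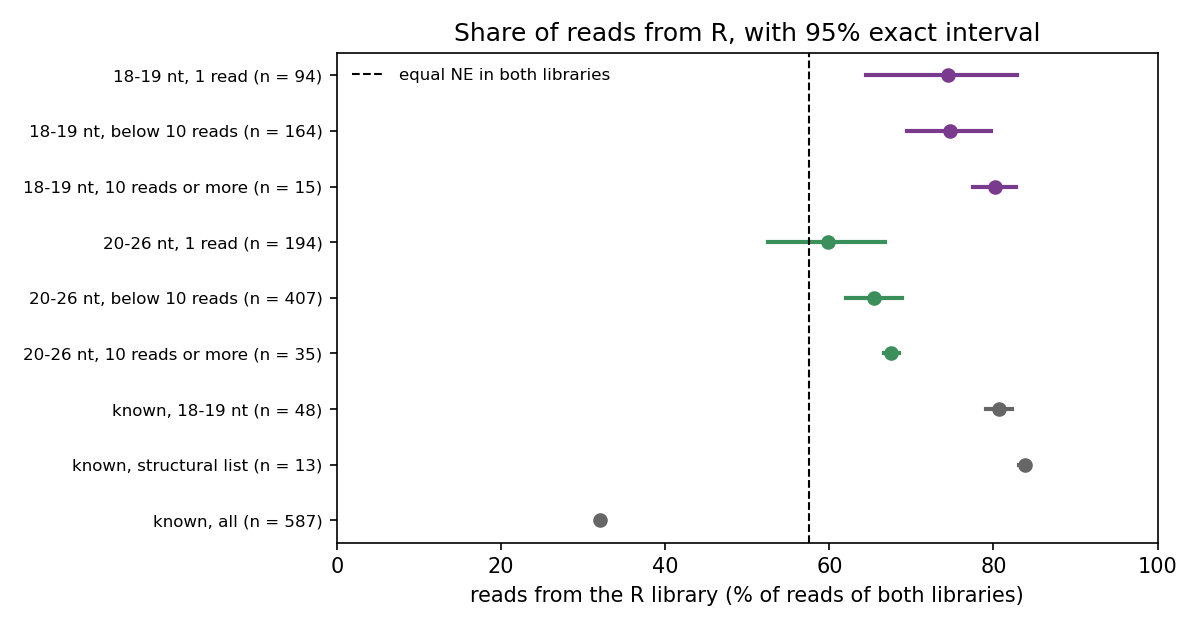
Reads from the R library as a percentage of the reads of both libraries, for groups of names, with 95% exact intervals as lines. The dashed line marks equal NE in both libraries (57.5%). The 3 groups of short candidates shown lie between 74.5% and 80.2% and the 3 groups of longer candidates between 59.8% and 67.6%, while all known names lie at 32.0% and the structural list at 83.8%.

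The well-read names were examined by their values in each library. PC-5p-6424_145 had 196 NE in R (228 reads) and 37.2 NE in P (32 reads). PC-5p-5933_158 had 164 NE in R (191 reads) and 14 NE in P (12 reads). PC-5p-10782_91 had 65.4 NE in R (76 reads) and 25.6 NE in P (22 reads). All 3 were of the 5p arm, began with C and were higher in R. Next came 2 names of 19 nt with a GC content of 84.2%. PC-5p-35677_26 had 53.3 NE in R (62 reads) and 11.6 NE in P (10 reads). PC-5p-26648_38 had 45.6 NE in R (53 reads) and 9.30 NE in P (8 reads). These were higher in R as well. PC-5p-29935_32 differed from the others, with 7.74 NE in R (9 reads) and 39.5 NE in P (34 reads).

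**Figure D4:**
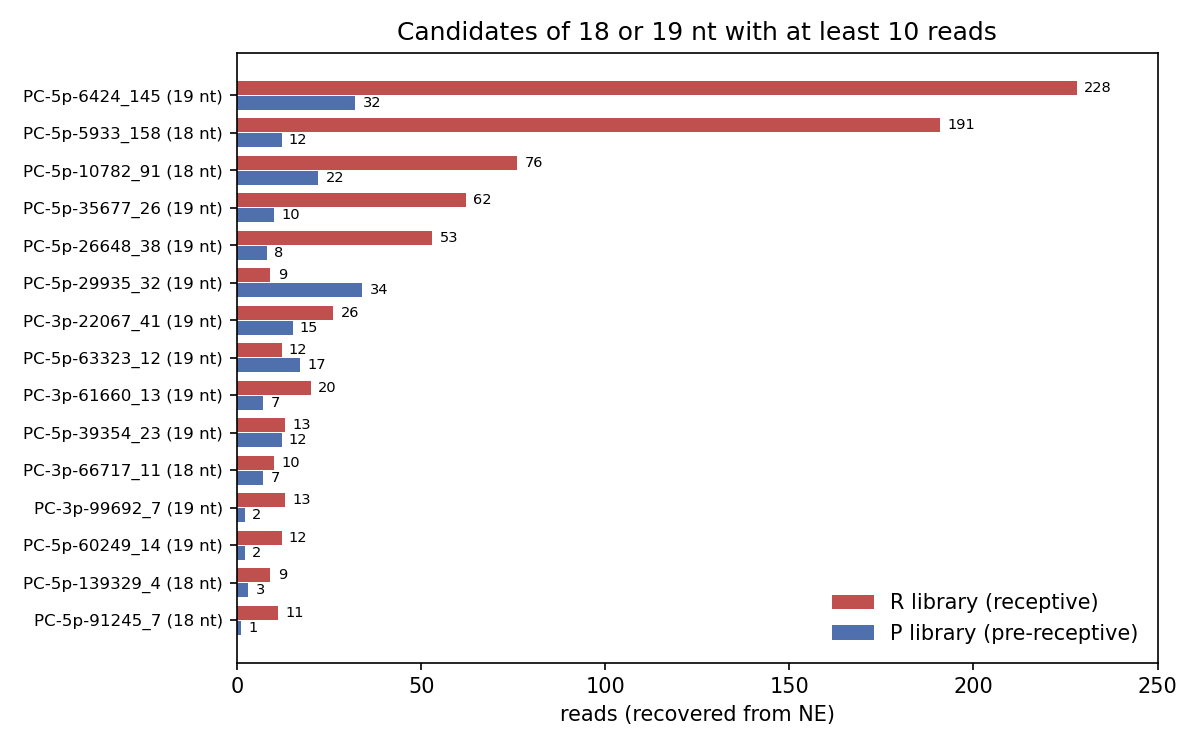
Reads (recovered from NE) of the 15 candidates of 18 or 19 nt with at least 10 reads, in the R and the P library. Reads in R exceed those in P in 13 names, while PC-5p-29935_32 (9 and 34 reads) and PC-5p-63323_12 (12 and 17 reads) had more reads in P.

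The remaining well-read names had at most 26 reads in a library. PC-3p-22067_41 had 22.4 NE in R and 17.4 NE in P, and PC-5p-63323_12 had 10.3 and 19.8 NE. PC-3p-61660_13 had 17.2 and 8.14 NE, PC-5p-39354_23 had 11.2 and 14 NE, and PC-3p-66717_11 had 8.60 and 8.14 NE. In these 5 names the interval of the ratio included equal NE. The last 4 had 1 to 3 reads in P. PC-3p-99692_7 had 11.2 NE in R and 2.33 NE in P, PC-5p-60249_14 had 10.3 and 2.33 NE, PC-5p-139329_4 had 7.74 and 3.49 NE, and PC-5p-91245_7, whose bases were all G or C, had 9.46 and 1.16 NE. Over the 15 names the interval of the ratio lay above equal NE in 7, below it in 1 and across it in 7.

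Differences were called by Fisher's exact test (two-sided, reads of a name against the remaining clean reads) at an unadjusted P under 0.05, with an absolute log2 ratio of NE above 1, NE of at least 1 in 1 library and NE above 0 in both. Only 30 of the 179 names could be tested, since 149 were at 0 in a library. Of these 30, 11 were called higher in R and 1 lower in R. Over all 564 names tested, 18.3% were called higher and 7.09% lower. Higher calls made up 72.0% of all calls, and 89.1% when scaled to clean reads, 95.1% when scaled to listed reads and 59.9% with the exact binomial test, while for the short candidates they made up 91.7%, 92.3%, 100% and 87.5%. The 30 names tested are those read in both libraries and do not stand for all 179. With the exact binomial test, which takes equal NE as the expectation, 7 of the 30 were called higher and 1 lower, where 14.5% and 9.75% of all names were. Fisher's test takes equal shares of clean reads as its expectation, which lies 0.78 on the log2 scale from equal NE. The names lost with the binomial test were PC-3p-61660_13, PC-5p-60249_14, PC-5p-139329_4 and PC-5p-108241_6, and their intervals all included equal NE.

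PC-5p-6424_145 had a ratio of 5.27 (interval 3.63 to 7.89; exact P = 6.16e-49, adjusted 4.96e-48). PC-5p-5933_158 had the largest ratio of the 15 well-read names, 11.8 (6.58 to 23.2; exact P = 6.05e-53, adjusted 5.09e-52). PC-5p-10782_91 had a ratio of 2.55 (1.57 to 4.31; exact P = 2.46e-11, adjusted 1.05e-10). The ratio of both GC-rich names was similar, and their intervals overlapped. It was 4.58 (2.33 to 10.0; exact P = 1.69e-13) in PC-5p-35677_26 and 4.90 (2.31 to 11.9; exact P = 4.63e-12) in PC-5p-26648_38. PC-5p-91245_7 had a ratio of 8.13 from 11 reads and 1 read, with an interval of 1.18 to 350, so its size was hardly measured. PC-3p-99692_7 had a ratio of 4.81 (1.09 to 43.9; exact P = 0.00102).

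The calls of the other names higher in R were less firm, and for these the exact P of the binomial test is given too. PC-5p-60249_14 had a ratio of 4.44 (0.988 to 40.8; exact P = 0.00200, binomial 0.0542) and PC-3p-61660_13 of 2.11 (0.858 to 5.91; exact P = 0.00283, binomial 0.118). PC-5p-139329_4 had a ratio of 2.22 (0.554 to 12.7; exact P = 0.0403, binomial 0.257), and its adjusted P of 0.0809 missed the limit. PC-5p-108241_6 was called with fewer than 10 reads, 8 in R (6.88 NE) and 1 in P (1.16 NE), at a ratio of 5.92 (0.793 to 262; exact P = 0.0131, binomial 0.0883). Its sequence follows, with the seed in capitals.
PC-5p-108241_6: aTACCGGGtgctaggctt

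PC-5p-29935_32 was the only name called lower in R, with NE in P 5.11 times that in R (log2 ratio -2.35, interval -3.60 to -1.26). Fisher's test gave an exact P of 0.00195 (adjusted 0.00505) and the binomial test, which expects equal NE, an exact P of 1.36e-06. Scaled to the listed reads its log2 ratio was -0.83 and it was no longer called. PC-3p-22067_41 passed Fisher's test (exact P = 0.0172, adjusted 0.0372) but not the binomial test (exact P = 0.528). Its log2 ratio of 0.36 was under the limit and it was not called. Its log2 ratio was 1.14 when scaled to clean reads, past the limit. PC-5p-63323_12 (-0.94), PC-5p-39354_23 (-0.32) and PC-3p-66717_11 (0.08) did not pass the test. PC-5p-39354_23 changed sign when scaled to clean reads (0.46), and PC-5p-63323_12 did so when scaled to listed reads (0.58).

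**Figure D5:**
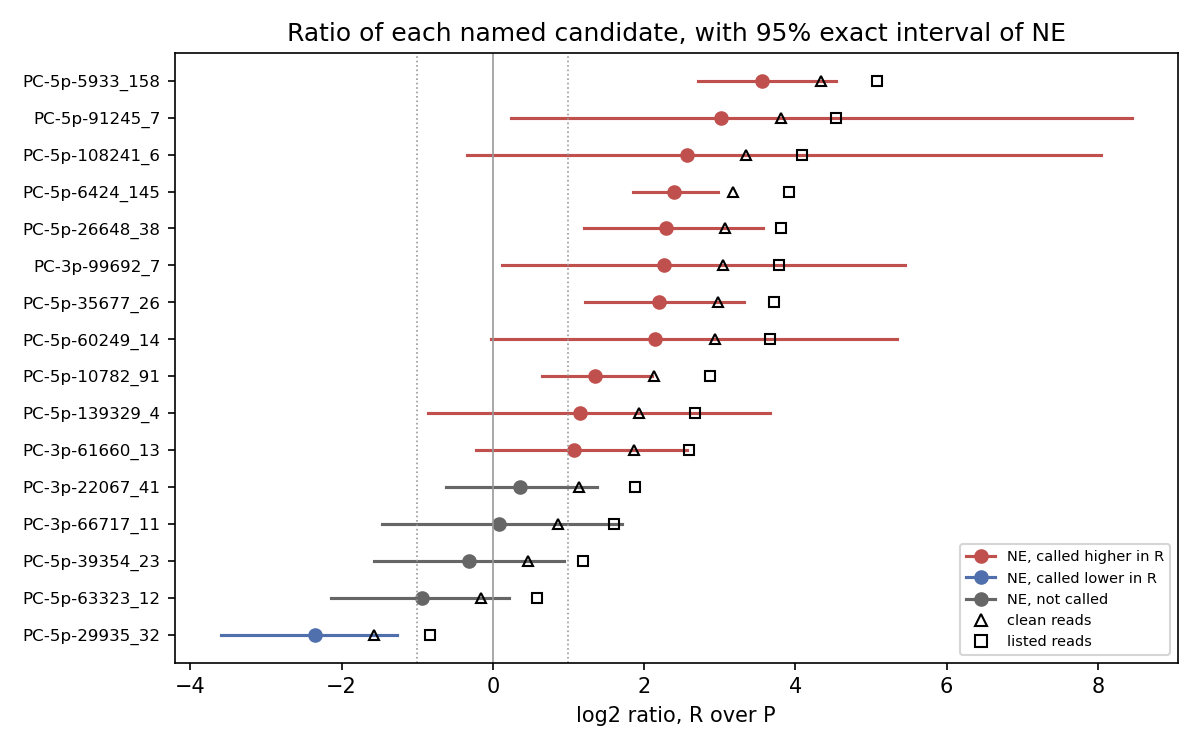
Log2 ratio of NE (R over P) of the 15 well-read candidates and PC-5p-108241_6, as filled points with 95% exact intervals as lines. Red marks names called higher in R, blue the name called lower and grey names not called, triangles and squares give the ratio scaled to clean and to listed reads (0.78 and 1.52 higher), and dotted lines mark -1 and 1. PC-5p-5933_158 is highest at 3.56 and PC-5p-29935_32 lowest at -2.35.

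Names at 0 in a library were not tested by the rule above. Those with the most reads, chosen after their values were seen, were PC-3p-100129_6 with 9 reads in R (7.74 NE) and PC-3p-171313_3 with 8 reads in R (6.88 NE). Both were at 0 in P, where a count of 0 allows up to 3 reads or 3.49 NE. The NE in R was 2.22 times this limit in PC-3p-100129_6 and 1.97 times in PC-3p-171313_3. These folds leave out the counting error of the reads in R, and the lower limits of the exact intervals were 1.46 and 1.26. With at least 3 reads taken as the limit of detection, 15 names were detected in R only and 2 in P only. Some of these were read in both libraries, such as PC-3p-99692_7 with 13 reads in R and 2 in P.

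The likeness of these sequences to other listed RNAs was measured by the fewest edits (substitutions, insertions or deletions, with the ends of the longer sequence free) that turn a candidate into a stretch of a known sequence. Within 2 edits lay 1 of the 15 well-read names (6.67%), 1 of the 164 names below 10 reads (0.610%) and 38 of the 442 longer candidates (8.60%), among them 8 of the 35 longer well-read candidates (22.9%). Of these 38, 35 were nearest to a member of the miR-2284 or miR-2285 families, which are bovine miRNA families with many copies. No candidate of 18 or 19 nt matched a known sequence over its whole length, whereas 8 of the longer candidates did, 5 of them well-read. The other 14 well-read names needed 3 to 6 edits.

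Both near names equalled the start of a known miRNA with bases missing from the middle. PC-5p-29935_32 equals the start of aja-miR-143_1ss22GT without 2 bases, which can be placed at positions 14 and 15 or 15 and 16 from the 5′ end. PC-5p-175228_3, chosen after its values were seen, was read 3 times in P and not in R and equals the start of bta-miR-27b without 1 base, at position 9 or 10. The known sequences are shown with the missing bases in capitals, and below them PC-5p-175228_3 with its seed in capitals.
aja-miR-143_1ss22GT: tgagatgaagcacTGtagctct
bta-miR-27b: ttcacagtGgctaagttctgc
PC-5p-175228_3: tTCACAGTgctaagttctg

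miR-143 is known as an abundant miRNA of smooth muscle and other mesenchymal cells. aja-miR-143_1ss22GT had 289634 NE in R and 1866274 NE in P, so P was 6.44 times R, and in PC-5p-29935_32 P was 5.11 times R. bta-miR-27b had 32939 NE in R and 54410 NE in P, so P was 1.65 times R. In these pairs the candidate and the known miRNA had more NE in P, though in PC-5p-175228_3 this rests on 3 reads. A further candidate with 2 reads in P and 0 in R, PC-3p-197843_2, shared 15 bases in a row with aja-miR-143_1ss22GT and needed 3 edits. It was chosen after its values were seen, and the shared bases are in capitals.
PC-3p-197843_2: ttAGATGAAGCACTGTAaa

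No short candidate lay within 2 edits of the 13 known names of the structural list, and the well-read names needed 5 to 8 edits. This distance does not measure likeness to the structural RNAs themselves, of which the list covers only small parts. Of these 13 names, 12 were called higher in R (11 with the exact binomial test or adjusted P) and 0 lower. Over all names tested, 18.3% and 7.09% were. The summed NE of the 13 names was 8417 in R and 2196 in P (ratio 3.83, exact interval 3.65 to 4.03). As several of the 13 overlap in sequence, these calls do not count separate RNAs. The list was also chosen with earlier results of these data known. The ratio of the 15 well-read short candidates together was 2.99 (2.54 to 3.54). Parts of 2 short candidates recurred in the list. The last 11 bases of PC-5p-35677_26 were the first 11 of bta-mir-2887-2-p5_1ss7AC, while the whole sequences were 6 edits apart. Both were rich in G and C (84.2% and 94.4%), and whether they come from the same RNA was not tested. Bases 2 to 15 of PC-5p-370667_1, which had 1 read in R and was chosen after its values were seen, were bases 7 to 20 of hsa-miR-4792_L+1R+1_1ss10GT. The shared bases are in capitals.
PC-5p-35677_26: ctccgtccCGGGACCCGGG
bta-mir-2887-2-p5_1ss7AC: CGGGACCCGGGgcgcggc
PC-5p-370667_1: cAGCTCTCGCTGGCCcttg
hsa-miR-4792_L+1R+1_1ss10GT: ccggtgAGCTCTCGCTGGCC

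Of the known partners, hsa-miR-4792_L+1R+1_1ss10GT had 146 NE in R and 23.3 NE in P and was higher in R. bta-mir-2887-2-p5_1ss7AC had 6.02 NE in R (7 reads) and 2.33 NE in P (2 reads), a ratio of 2.59 (0.493 to 25.5; exact P = 0.0492, adjusted 0.0967, binomial 0.318). It was called with Fisher's test but not with the binomial test or adjusted P. Another name of the list, oan-miR-1386_L+2R-1, was called with none of these. It had 0.860 NE in R (1 read) and 3.49 NE in P (3 reads), a log2 ratio of -2.02. PC-5p-35677_26 itself had 53.3 and 11.6 NE. The most abundant names of the list, hsa-mir-7641-2-p3_1ss22TC with 3564 NE in R and 929 NE in P and hsa-mir-7641-2-p5 with 2335 and 657 NE, shared at most 7 bases in a row with any well-read short candidate. rRNA, tRNA and genome sequences were not used here, so likeness to the RNAs themselves was not tested, and the 13 names cover only small parts of them.

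Short candidates also overlapped other candidates. A run of at least 11 shared bases with another candidate was found in 16 of the 179 names (8.94%), in 5 of the 15 well-read names (33.3%), in 79 of the 442 longer candidates (17.9%) and in 11 of the 35 longer well-read candidates (31.4%). PC-3p-61660_13 and PC-3p-66717_11 differ by 2 edits and share 11 bases, which begin at base 2 of the former and base 1 of the latter. PC-5p-39354_23 ends in the same 13 bases as PC-5p-560281_1, a candidate of 21 nt with 2 reads in P. The last 11 bases of PC-3p-603243_1, with 1 read in R, were the first 11 of PC-5p-6424_145. PC-5p-173181_3, with 4 reads in R, was wholly contained in PC-3p-259457_3, a candidate of 20 nt with 3 reads in R, although they were placed on opposite arms. The names in these pairs that are not well-read were each chosen after its values were seen. The shared bases of the pairs are in capitals.
PC-3p-61660_13: cGCCTGTCTGAGcctcgct
PC-3p-66717_11: GCCTGTCTGAGtgtcgct
PC-5p-39354_23: cctggtGGGTAGAACCTCC
PC-5p-560281_1: cgcctgaaGGGTAGAACCTCC
PC-3p-603243_1: cgggaccgCAGCCTCTGGC
PC-5p-6424_145: CAGCCTCTGGCatgttgga
PC-5p-173181_3: CGCGGCGGGGGCGCCGGG
PC-3p-259457_3: CGCGGCGGGGGCGCCGGGgc

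A hairpin cut by Dicer gives a duplex, so the opposite arm was looked for as a candidate of the other arm with the same hairpin length and at least 11 complementary bases in a row. None of the 15 well-read short candidates had such a partner, nor did any of the 35 longer well-read candidates. Among all names there were 2 short candidates (1.12%) and 14 longer candidates (3.17%) with one. The 2 short names, PC-3p-278172_2 with 2 reads and PC-5p-527436_1 with 1 read, were partners of each other with hairpins of 86 nt. Each was chosen after its values were seen, and the 12 complementary bases are in capitals.
PC-3p-278172_2: actgatTCTCTCAACTCT
PC-5p-527436_1: cttggAGAGTTGAGAGAcc

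Seeds were mostly not shared with known miRNAs. Of the 179 names, 6 (3.35%) had bases 2 to 8 in common with a known name, against 43 of 442 (9.73%) of the longer candidates. In the well-read set these were PC-5p-29935_32, with the seed of miR-143, and PC-3p-61660_13, with that of hsa-miR-214-5p, from which it differed by at least 5 edits. Sequences ending in CCA, the end of mature tRNA, were 4 of the 179, and PC-5p-60249_14 was the well-read name among them. They were 5 of the 13 names of the structural list, some of which overlap in sequence. Of the 442 longer candidates they were 7, with 2 among the 35 that were well-read. The well-read short candidates were thus near the longer ones in this feature.

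Predicted targets were listed for 12 of the short candidates, of 22 candidates and 142 names in that table. The authors predicted targets for miRNAs that they had called different between the libraries, so being listed follows from such a call. A short candidate that is not listed is not thereby one without targets. Of the 12 short candidates called, 11 were among them, the exception being PC-5p-29935_32, and PC-5p-94605_6 (5 reads in R and 1 in P), chosen after its values were seen, was listed without being called. The number of target identifiers was 1196 for PC-5p-94605_6, 1159 for PC-5p-139329_4, 903 for PC-5p-6424_145 and 709 for PC-3p-61660_13. It was 427 for PC-5p-5933_158, the name with the largest ratio among the well-read, and 81 for PC-5p-91245_7. Together the 12 names covered 3831 of the 7608 identifiers of the table (50.4%), and 2154 of these were listed for 1 of the 12 names. The identifiers were not paired with gene names here.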

How the data were processed

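Small RNA of the endometrium was sequenced from 1 receptive library (R) and 1 pre-receptive library (P), and 4 deposited tables were used, on known miRNAs, on predicted candidates, on differential expression and on targets. The authors filtered the reads with the ACGT101-miR program, removed rRNA, tRNA and repeats, matched the rest to miRBase and the goat genome and deposited a normalized signal (NE) per name and library. Flanks were folded with RNAfold. The authors' ratios and P-values in the table of differential expression were not used, and its NE values served only to check the library labels. The column of transcripts in the target table is a separate list of identifiers, so targets were counted from the column of genes. There were 0 per-library columns left unused.

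Counts were recovered from the deposited signal, in which 1 read was worth 0.860 NE in R and 1.16 NE in P. Of the values of the 179 candidates of 18 or 19 nt, 99.7% were whole within 0.0001 read (99.2% over all candidates). For a repeated name NE was taken as listed and reads were summed over its 2 entries. Clean reads numbered 4233874 for the R library and 5386427 for the P library. The listed names held 1912362 and 4050349 reads. A count of 0 allows up to 3 reads, equal to 2.58 NE in R and 3.49 NE in P. Ratios have 95% exact (Clopper-Pearson) intervals, and P-values were adjusted by the Benjamini-Hochberg method over all 564 names tested. Both tests were run on simulated data first. Limits on right calls, false calls and intervals were required there of the exact binomial test only, not of Fisher's test.

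The names described in the text were every candidate with at least 10 reads over both libraries and every candidate called. They also included any candidate below 10 reads that matched a known sequence exactly (0 did) and the known names a candidate was compared with. Every other candidate is marked in the text as picked after seeing its values. The candidates and the lists were chosen with earlier results of these data known. The limits of 11 bases for shared and complementary runs, the GC limit of 70%, the summaries of first base and CCA ends, the table by length and 3 kinds of alternative were added after seeing the data. Alternatives were other scalings, tests, filters, labels and limits of likeness. Python 3.11.15, numpy 2.4.6, scipy 1.17.1 and matplotlib 3.10.9 were used.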

Additional observations from a re-analysis of the deposited data

How the results depend on the processing

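The short candidates called higher in R numbered 9 to 12, beside 11 in the text, with adjusted P, with scaling to clean or listed reads, with at least 10 reads, with names at 0 kept and with 1 NE added. The exact binomial test called 7, because it expects equal NE where the other test expects equal shares of clean reads. The 1 name called lower was kept in all of these except scaling to listed reads, which called 0. There the ratio was rescaled and the test left on clean reads. A first version also changed the totals of the test and called 14 higher and 0 lower. It was replaced after the count over all names had been seen to differ from that of an earlier analysis of these data, and it is kept as an alternative added after seeing the data.

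With the labels as printed, 1 was called higher and 8 lower, 36 names were in R only and 113 in P only, and the pooled log2 ratio was -1.47. The counts of detection and the pooled ratio mirror those in the text by construction. The calls do not mirror them, because the clean reads of the test were not exchanged with the labels. With at least 3 reads for detection, 15 names were in R only and 2 in P only. Here fewer names are counted, and fewer than 3 reads in a library are taken as absence. Some of these names were thus read in both libraries. The pooled log2 ratio of 1.47 was 1.27 without the most abundant name, 2.25 scaled to clean reads, 2.99 scaled to listed reads, 2.05 for 18 nt, 1.20 for 19 nt and 0.92 without the 2 most abundant names (added after seeing the data). The well-read names near a known sequence, 1 in the text, were 0 for exact matches, 0 for at most 1 edit, 2 of 35 names with at least 3 reads and 2 by a shared run of 11 bases (added after seeing the data).

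Scaling reversed PC-5p-39354_23 (0.46 by clean and 1.20 by listed reads) and PC-5p-63323_12 (0.58 by listed reads). It left PC-5p-29935_32 at -0.83 by listed reads and raised PC-3p-22067_41 to 1.14 and 1.88. With 1 NE added, PC-3p-61660_13 (0.99) and PC-5p-139329_4 (0.96) fell below the limit. No paired analysis was possible because each phase has 1 library. Depth limits the names with 1 to 3 reads in a library, whose intervals are wide, and 149 of the 179 names could not be tested.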
